A study of Mus musculus with 15 samples.

Results

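The CXC chemokine genes described here are 10 members of a family of signalling proteins, measured as transcripts in mouse colon, out of 32544 genes listed in the deposited count table. They were found by symbol and fall into 3 classes: 4 ligands that draw neutrophils (*Cxcl1*, *Cxcl2*, *Cxcl3* and *Cxcl5*), 3 ligands induced by interferon gamma (*Cxcl9*, *Cxcl10* and *Cxcl11*), and 3 others (*Cxcl12*, *Cxcl13* and *Cxcl16*). All 10 passed the expression filter and were among the 17477 genes tested. Libraries of total colon RNA came from mice of 3 *Tert* genotypes, *Tert* being the gene of the reverse transcriptase subunit of telomerase: a homozygous knockout (KO), a knock-in whose product lacks enzyme activity according to the series description (VAA), and wild type (WT). Each genotype had 3 libraries from mice given dextran sulfate sodium (DSS), which damages the lining of the colon, at 3% in drinking water for 4 days and then plain water for 4 days, and 2 libraries from untreated mice, which makes 15 libraries in all. The mice were 8 to 12 weeks old and colon was taken on day 8. The sources used here name neither the strain, nor the breeding generation of the KO line, nor the sex of the mice.

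CXC chemokines steer leukocytes by binding receptors on their surface and by forming gradients on matrix and endothelium. Cxcl1, Cxcl2, Cxcl3 and Cxcl5 bind Cxcr2 on neutrophils, and epithelium, stroma and myeloid cells make them after interleukin-1, tumour necrosis factor or interleukin-17 activates NF-κB. Cxcl9, Cxcl10 and Cxcl11 bind Cxcr3 on activated T and NK cells and are made in response to interferon gamma. Cxcl12 is a stromal ligand of Cxcr4, Cxcl13 guides B cells through Cxcr5, and Cxcl16 is a membrane-anchored ligand of Cxcr6 that can be shed by proteases.

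Library totals ran from 10.56 to 17.54 M counts. *Tert* had 0, 0 and 1 count in the KO DSS libraries, 29, 12 and 7 in the VAA DSS libraries and 26, 36 and 23 in the WT DSS libraries, and 1 count in each KO untreated library, 25 and 15 in VAA untreated and 37 and 40 in WT untreated, so the counts went with the genotype labels. The Y-linked transcript *Ddx3y* had 868 counts in KO untreated replicate 2 and 914 in WT untreated replicate 2, against 5 to 20 in the other libraries, so sex was not balanced over the groups. VAA DSS replicate 3 stood apart: it had the smallest total, its 6 fibroblast markers summed to 3310 counts per M counts (CPM) against 1270 and 1960 CPM in the other VAA DSS libraries, and its 6 endothelial markers summed to 266 CPM against 74.1 and 109 CPM. The 7 epithelial markers summed to between 5780 and 10600 CPM in every library. The colon was sequenced whole, so fewer cells of a type and less RNA per cell cannot be told apart in any value below.

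Of the 10 genes, 8 lie on chromosome 5 in the GENCODE annotation of GRCm38 (mm10). *Cxcl5* (chr5:90759360-90761624), *Cxcl3* (chr5:90786103-90789600), *Cxcl1* (chr5:90891241-90893115) and *Cxcl2* (chr5:90903871-90905938) are on the plus strand of a single cluster. *Cxcl9* (chr5:92321347-92328079), *Cxcl10* (chr5:92346638-92348889) and *Cxcl11* (chr5:92359544-92365485) are on the minus strand, next to each other, and *Cxcl13* (chr5:95956951-95961068) is on the plus strand farther along. *Cxcl12* (chr6:117168535-117181367) and *Cxcl16* (chr11:70453983-70459984, minus strand) lie elsewhere. *Cxcl11* is annotated as a polymorphic pseudogene, and 42.2% of its 31-base words occur in 2579 other genes, so its values are uncertain. *Cxcl16* shared 21.6% of its words with the overlapping gene *Zmynd15*, *Cxcl10* shared 6.79% with *Art3*, and *Cxcl2* and *Cxcl3* shared 4.3% and 8.11% with each other, while *Cxcl1* and *Cxcl13* shared none. The sources used here do not say whether the authors' counting used strand.

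RefSeq promoters on GRCm38.p6, from 250 bases before to 50 bases after the start, were matched for 7 of the 10 members. *Cxcl5*, *Cxcl11* and *Cxcl16* were the others. The NF-κB consensus, searched on both strands, was matched in 4.51% of 32851 promoters, and among the members in *Cxcl1*, *Cxcl2*, *Cxcl3* and *Cxcl10*. The interferon-stimulated response element core GAAANNGAA was matched in 8.56% of promoters, and among the members in *Cxcl9* and *Cxcl10*. The gamma-activated site TTCNNNGAA, present in 8.3%, was matched in no member, which says only that these letters were absent from the window. Stretches with matches are printed below to show that the 3 neutrophil-type promoters matched carry the same 11 letters, that *Cxcl9* carries the response element core and that *Cxcl10* carries both motifs. Capitals mark the matches, each line reads 5′ to 3′ on the gene's own strand, and the stretches are chr5:90891135-90891214 (*Cxcl1*, plus strand), chr5:90903763-90903842 (*Cxcl2*, plus strand), chr5:90785989-90786068 (*Cxcl3*, plus strand), chr5:92328200-92328279 (*Cxcl9*, minus strand) and chr5:92348970-92349109 (*Cxcl10*, minus strand).
Cxcl1: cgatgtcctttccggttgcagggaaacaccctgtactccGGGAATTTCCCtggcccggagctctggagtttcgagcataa
Cxcl2: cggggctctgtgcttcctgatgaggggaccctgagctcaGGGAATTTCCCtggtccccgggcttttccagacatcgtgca
Cxcl3: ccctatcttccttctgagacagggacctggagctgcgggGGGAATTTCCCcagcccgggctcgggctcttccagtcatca
Cxcl9: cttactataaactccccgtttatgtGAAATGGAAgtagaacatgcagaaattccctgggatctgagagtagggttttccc
Cxcl10: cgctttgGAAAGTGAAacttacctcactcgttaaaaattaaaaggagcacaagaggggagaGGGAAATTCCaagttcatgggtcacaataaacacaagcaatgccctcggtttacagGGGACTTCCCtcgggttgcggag

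In *Cxcl1*, *Cxcl2* and *Cxcl3* the capitals are the NF-κB match, made of 2 overlapping windows that span -71 to -61, -97 to -87 and -73 to -63 from the start. In *Cxcl9* they are the response element core at -175 to -167. In *Cxcl10* the first capitals are the response element core at -213 to -205 and the next are NF-κB matches at -159 to -150 and -103 to -94. A match is a description of letters and was not tested as a site.

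Untreated colon held little of most of these transcripts. Per kilobase of the longest coding transcript, *Cxcl12* had the highest mean in all 3 untreated groups at 5.20 (KO), 5.83 (VAA) and 5.66 (WT) CPM per kb, followed by *Cxcl16* at 4.85, 5.46 and 4.79 CPM per kb in the same order of genotypes. The libraries of *Cxcl12* and *Cxcl16* overlapped per kb in each untreated group, as did those of *Cxcl12* and *Cxcl13* in KO and VAA, so the order of these members lies within the spread between libraries. *Cxcl2* was lowest in each, at 0.0348 (KO), 0.0880 (VAA) and 0.0549 (WT) CPM per kb, from 2, 4 and 3 counts in all. After DSS the order was different: the mean of *Cxcl5* led at 14.5 (KO), 110.7 (VAA) and 73.5 (WT) CPM per kb. *Cxcl13* came next in VAA and WT mice, at 37.8 and 43.7 CPM per kb, and its libraries overlapped those of *Cxcl5* in KO and WT but not in VAA. In KO DSS colon *Cxcl16* (7.85) and *Cxcl13* (7.78 CPM per kb) were not separated beyond the spread between libraries, and *Cxcl11* was last in every DSS group, at 0.651 (KO), 0.706 (VAA) and 0.930 (WT) CPM per kb.

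**Figure D1:**
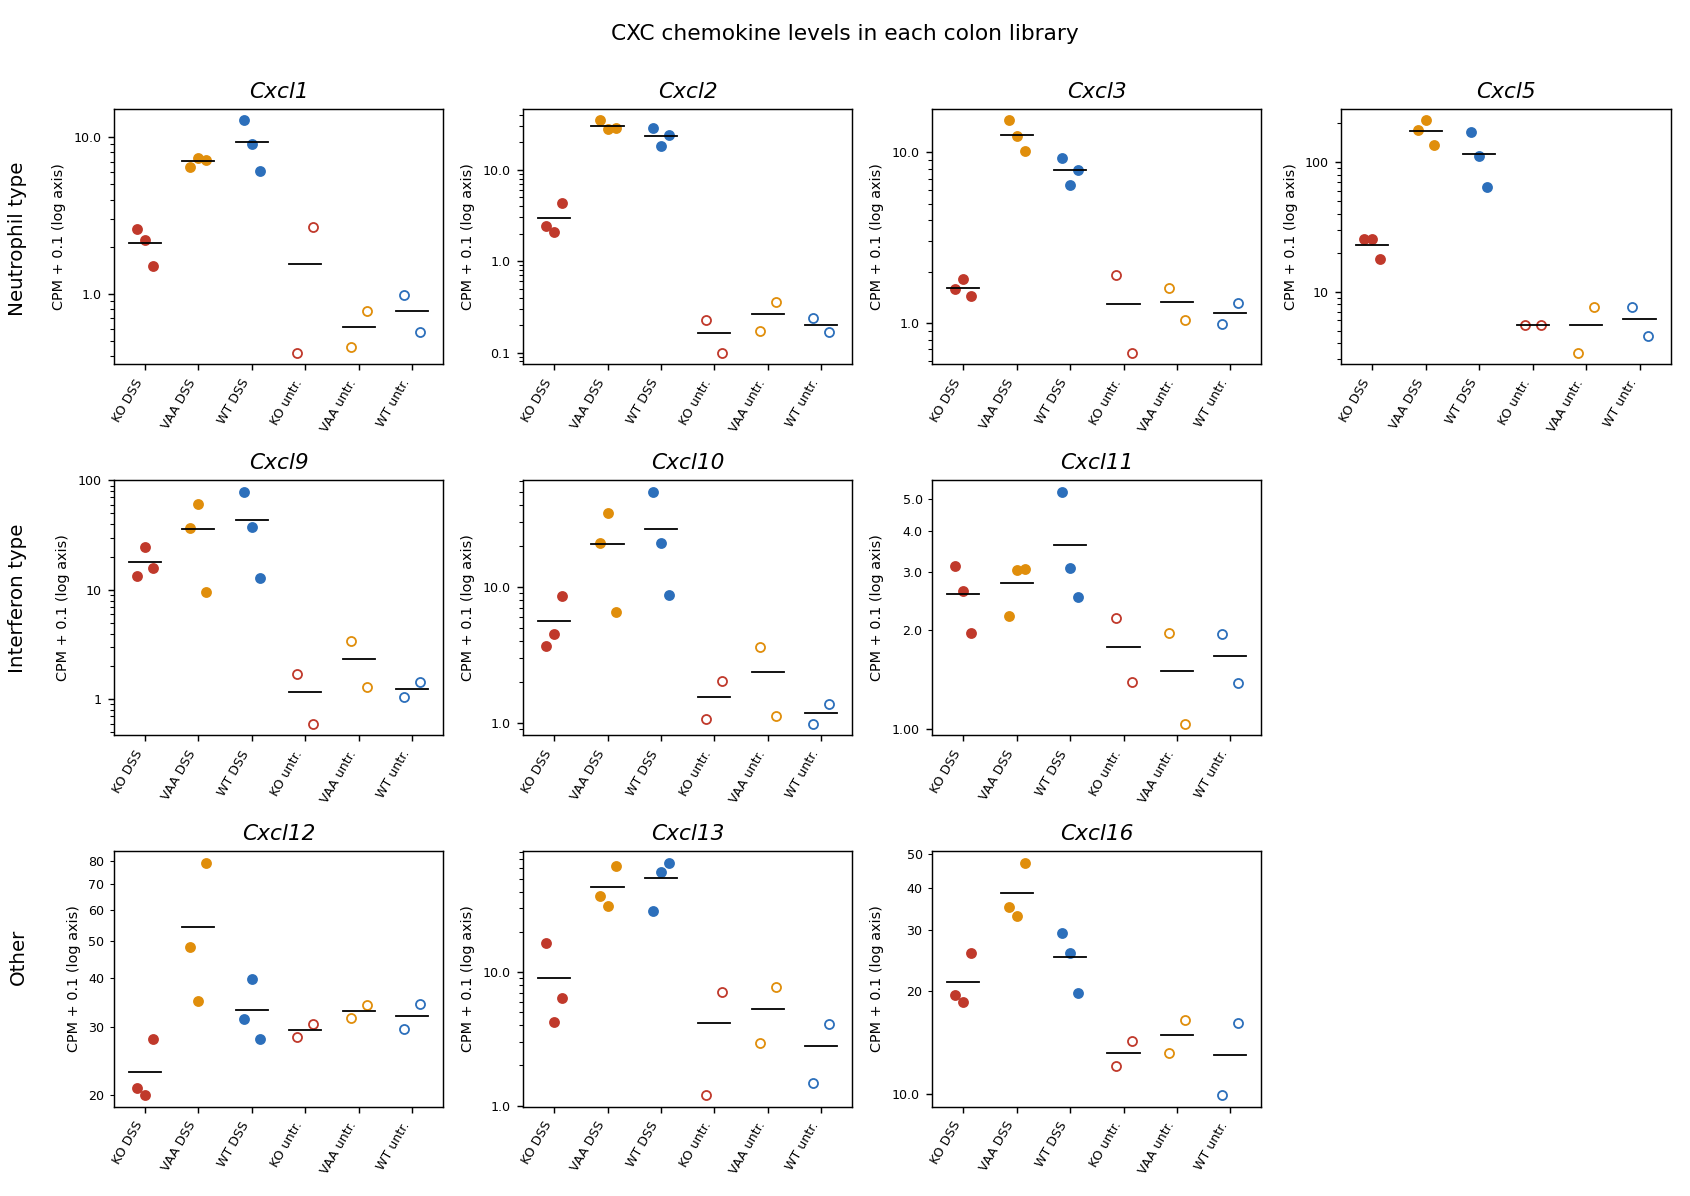
Each panel plots a member's CPM plus 0.1 on a log axis in each of the 15 libraries, by group, with filled points for DSS, open points for untreated and a line at the group mean. The 4 neutrophil-type ligands of KO DSS libraries lie below every VAA and WT DSS library, while *Cxcl9* of KO DSS libraries, at 13.2 to 24.4 CPM, lies within the ranges of VAA and WT.

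The first question was which chemokines DSS colitis raised in each genotype. Comparisons below are log2 fold changes with the standard error of the fit and *P* values from edgeR's quasi-likelihood test adjusted by Benjamini-Hochberg over all 17477 genes, with a gene called at an adjusted *P* under 0.05. In KO colon 3 members were higher after DSS (*Cxcl2*, *Cxcl5* and *Cxcl9*), where 5.59% of all genes tested were called higher and 5.06% lower. In VAA colon 8 were higher, against 10.9% of genes called higher and 9.54% lower. In WT colon 8 were higher, against 14.1% of genes called higher and 12.5% lower. In VAA and WT the members that did not pass by edgeR were *Cxcl11* and *Cxcl12*, and DESeq2 also called *Cxcl11* higher in WT. The members' median log2 fold change was 0.92 in KO, 3.26 in VAA and 3.99 in WT, and that of all genes was 0.00, 0.06 and -0.01. Averaged over genotypes, 9 members were higher and *Cxcl12* did not pass, where 22.5% of all genes were called higher and 20.0% lower. All DSS libraries lay above the untreated ones for 5 members in KO, 10 in VAA and 9 in WT. That was so for 24.1%, 21% and 31.9% of all genes. They lay below for 1 member in KO and for 0 in VAA and WT, against 24%, 19.7% and 31.1% of all genes. Groups that do not overlap were thus common with 3 against 2 libraries.

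Among the neutrophil-type ligands, *Cxcl2* had the widest range. Its CPM was 2.33, 1.98 and 4.24 in KO DSS libraries, 34.4, 27.9 and 28.1 in VAA DSS and 28.5, 18.1 and 23.8 in WT DSS, against 0.129 and 0 in KO untreated, 0.0716 and 0.256 in VAA untreated and 0.137 and 0.0673 in WT untreated. The groups of each genotype did not overlap. With so few untreated counts the ratio of scaled counts is given with its exact 95% counting interval: it was 41.7 in KO (11.3 to 348; 116 against 2 counts) and 232 in WT (79 to 1120; 1030 against 3 counts). In VAA, with 1348 against 4 counts, the log2 fold change was 7.51 ± 0.77 (adjusted *P* = 3.59e-06). The adjusted *P* was 0.000614 in KO and 5.17e-06 in WT.

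*Cxcl5*, which epithelium and stroma make, had the highest mean CPM per kb of the members in each DSS group. In plain CPM its mean in KO DSS was 22.9, next to 22.8 for *Cxcl12*. Its CPM was 25.4, 25.4 and 17.8 in KO DSS libraries, 178.5, 209.8 and 134.5 in VAA DSS and 171.5, 111.9 and 64.0 in WT DSS, against 5.43 and 5.43 in KO untreated, 3.29 and 7.496 in VAA untreated and 7.59 and 4.44 in WT untreated. DSS libraries were above untreated ones in each genotype, and KO DSS libraries were the lowest of the DSS libraries. The log2 fold change was 2.07 ± 0.42 in KO (adjusted *P* = 0.0102), 5.03 ± 0.42 in VAA (1.84e-05) and 4.26 ± 0.40 in WT (5.37e-05). The KO call rested on both KO untreated libraries: without either the value was 2.07 or 2.08 and the adjusted *P* 0.101 or 0.0744, and without both male libraries it was 2.08 with 0.0889.

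*Cxcl1* and *Cxcl3* rose in VAA and WT colon, and in KO colon they did not pass the test. CPM of *Cxcl1*, a ligand made early in tissue injury, was 2.48, 2.12 and 1.41 in KO DSS libraries, 6.38, 7.23 and 7.11 in VAA DSS and 12.7, 8.97 and 6.02 in WT DSS, against 0.323 and 2.57 in KO untreated, 0.358 and 0.681 in VAA untreated and 0.889 and 0.471 in WT untreated. KO untreated replicate 2, from a male by *Ddx3y*, was above all 3 KO DSS libraries. The log2 fold change of *Cxcl1* was 0.49 ± 0.59 in KO (adjusted *P* = 0.65), 3.73 ± 0.70 in VAA (0.0018) and 3.74 ± 0.64 in WT (0.00126). Without KO untreated replicate 2 the KO value was 2.60 with an adjusted *P* of 0.0464, and without KO untreated replicate 1 it was -0.36 with 0.741.

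*Cxcl3* had 1.47, 1.71 and 1.34 CPM in KO DSS libraries, 15.2, 12.4 and 10.1 in VAA DSS and 9.19, 6.29 and 7.73 in WT DSS, against 1.81 and 0.571 in KO untreated, 1.503 and 0.937 in VAA untreated and 0.889 and 1.21 in WT untreated. The KO groups overlapped, and the VAA and WT groups did not. Its log2 fold change was 0.32 ± 0.42 in KO (adjusted *P* = 0.669), 3.35 ± 0.40 in VAA (0.000118) and 2.87 ± 0.40 in WT (0.000359). The median over the 4 neutrophil-type ligands was 1.28 in KO, 4.38 in VAA and 4.01 in WT.

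Among the interferon-type ligands, *Cxcl9* was higher after DSS in all 3 genotypes, *Cxcl10* in VAA and WT, and *Cxcl11* in none by edgeR. The spread between libraries was wide for *Cxcl9* and *Cxcl10* in VAA DSS and WT DSS, where the highest library of *Cxcl9* had 6.48 and 6.17 times the CPM of the lowest. *Cxcl9* had 13.2, 24.4 and 15.7 CPM in KO DSS libraries, 36.9, 60.9 and 9.41 in VAA DSS and 79.0, 37.7 and 12.8 in WT DSS, against 1.62 and 0.4996 in KO untreated, 3.29 and 1.19 in VAA untreated and 0.957 and 1.35 in WT untreated. Every DSS library was above every untreated one. The log2 fold change of *Cxcl9* was 4.04 ± 0.97 in KO (adjusted *P* = 0.0201), 3.97 ± 0.85 in VAA (0.00703) and 5.21 ± 0.95 in WT (0.00212). The KO call was lost without either KO untreated library (3.46 with adjusted *P* = 0.136, or 5.13 with 0.104) and without KO DSS replicate 2 (3.74 with 0.0535). It was also lost with sex as a covariate (3.85 with 0.0618) and without both male libraries (3.46 with 0.171). The VAA call was lost without VAA untreated replicate 2 or with only the groups compared (highest adjusted *P* 0.0835).

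*Cxcl10* had 3.57, 4.44 and 8.47 CPM in KO DSS libraries, 21.1, 34.8 and 6.43 in VAA DSS and 50.2, 20.9 and 8.61 in WT DSS, against 0.970 and 1.93 in KO untreated, 3.51 and 1.02 in VAA untreated and 0.889 and 1.28 in WT untreated. The groups of each genotype did not overlap. In log2 terms DSS over untreated was 1.93 ± 0.87 in KO (adjusted *P* = 0.177), 3.18 ± 0.81 in VAA (0.0179) and 4.60 ± 0.89 in WT (0.00344). With only the groups compared the KO difference was called (1.90, 0.024). The *Cxcl10* call was lost in VAA without either untreated library or with only the groups compared (highest adjusted *P* 0.153), and in WT without WT untreated replicate 1 (0.051). *Cxcl11* had between 1.86 and 5.18 CPM in the DSS libraries, the lowest mean of the class in each DSS group, and between 0.937 and 2.07 CPM in the untreated ones. In WT its DSS libraries were above its untreated ones, and its log2 fold change of 1.17 ± 0.41 did not pass by edgeR (adjusted *P* = 0.0559). DESeq2 called it (1.17, 0.0412), as did edgeR with the replicate block (1.26, 0.0275), without WT DSS replicate 3 (0.0389) and without VAA DSS replicate 3 (0.0403). Averaged over genotypes *Cxcl11* rose by 0.88 ± 0.24 (adjusted *P* = 0.011), which did not hold with sex as a covariate or without both male libraries.

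Of the remaining ligands, *Cxcl13* and *Cxcl16* rose in VAA and WT colon and by edgeR *Cxcl12* did not pass in any genotype. *Cxcl13*, the B cell attractant, had 16.4, 4.09 and 6.32 CPM in KO DSS libraries, 37.1, 31.3 and 61.9 in VAA DSS and 28.7, 56.3 and 65.7 in WT DSS, against 1.10 and 6.995 in KO untreated, 2.86 and 7.58 in VAA untreated and 1.37 and 3.97 in WT untreated. The KO groups overlapped, and the VAA and WT groups did not. On the log2 scale DSS over untreated was 1.15 ± 0.74 in KO (adjusted *P* = 0.356), 3.07 ± 0.71 in VAA (0.0127) and 4.23 ± 0.76 in WT (0.00277). In VAA the call was lost without VAA untreated replicate 1 (adjusted *P* = 0.137).

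*Cxcl16* had 19.4, 18.5 and 25.6 CPM in KO DSS libraries, 35.1, 33.0 and 47.1 in VAA DSS and 29.5, 25.8 and 19.6 in WT DSS, against 12.0 and 14.2 in KO untreated, 13.1 and 16.4 in VAA untreated and 9.84 and 16.0 in WT untreated. Its DSS libraries were above its untreated libraries in each genotype. DSS over untreated was on the log2 scale 0.69 ± 0.25 in KO (adjusted *P* = 0.0981), 1.38 ± 0.25 in VAA (0.00199) and 0.95 ± 0.25 in WT (0.016). The WT call of *Cxcl16* was lost without WT untreated replicate 1 or WT DSS replicate 1 (highest adjusted *P* 0.2), and in KO it was called with only the groups compared (0.0427) or without VAA DSS replicate 3 (0.0449). *Cxcl12* had 20.7, 19.9 and 27.7 CPM in KO DSS libraries, 47.9, 34.8 and 79.1 in VAA DSS and 31.3, 39.7 and 27.9 in WT DSS, against 28.2 and 30.3 in KO untreated, 31.6 and 34.1 in VAA untreated and 29.5 and 34.2 in WT untreated. Its 3 KO DSS libraries were below, and its 3 VAA DSS libraries above, their untreated libraries, and the highest *Cxcl12* value was in VAA DSS replicate 3. The log2 fold change was -0.36 ± 0.28 in KO (adjusted *P* = 0.436), 0.71 ± 0.27 in VAA (0.0906) and 0.05 ± 0.27 in WT (0.916), and in VAA it was called without VAA DSS replicate 2 (0.95 with 0.013).

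**Figure D2:**
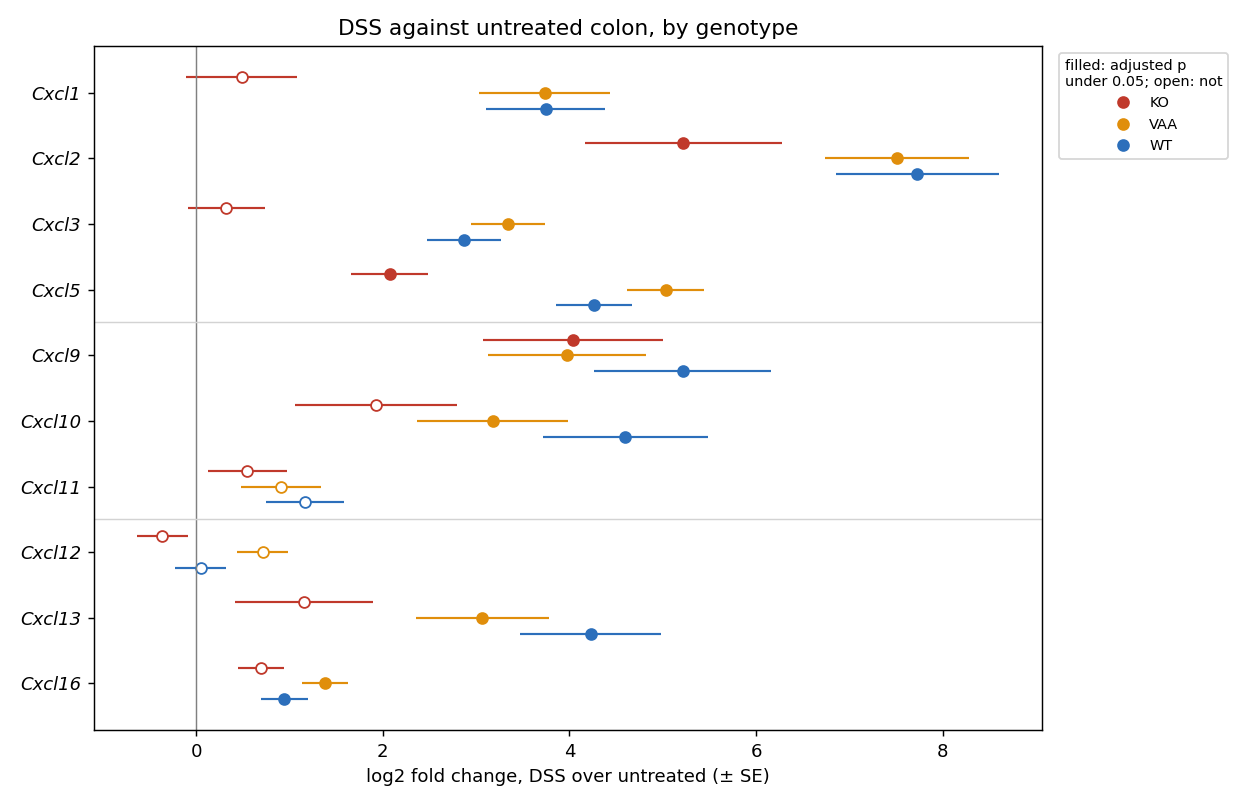
Points are log2 fold changes of DSS over untreated colon in KO, VAA and WT, with bars of 1 SE, filled where the adjusted *P* was under 0.05. *Cxcl1* and *Cxcl3* lie at 0.49 and 0.32 in KO, against 3.73 and 3.35 in VAA and 3.74 and 2.87 in WT, while the *Cxcl9* estimates of the 3 genotypes lie at 4.04, 3.97 and 5.21.

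The second question was how the genotypes differed under DSS. All 4 neutrophil-type ligands and *Cxcl13* were lower in KO than in WT, which made 5 lower members where 2.46% of genes tested were called lower and 3.21% higher. In KO against VAA 7 members were lower (the same 5, *Cxcl12* and *Cxcl16*), where 9.41% of genes were called lower and 6.01% higher. The KO libraries are shared by these comparisons. The members' median log2 fold change was -2.23 in KO against WT and -1.85 in KO against VAA, and that of all genes was -0.01 in each. For 7 members every KO DSS library was below every WT DSS library, as it was for 19.5% of all genes, and for 7 members below every VAA DSS library, as for 14.6% of all genes.

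The neutrophil-type ligands of KO DSS colon averaged 9.44% to 29% of the VAA level and 12.1% to 21.7% of the WT level. *Cxcl2* averaged 2.85 ± 1.22 CPM in KO, 30.2 ± 3.70 CPM in VAA and 23.5 ± 5.22 CPM in WT (SD, n = 3 each). Its log2 fold change was -3.40 ± 0.30 in KO against VAA (adjusted *P* = 0.000148) and -3.04 ± 0.31 in KO against WT (0.000508). *Cxcl3* was lower by -3.05 ± 0.33 against VAA (0.000393) and -2.35 ± 0.34 against WT (0.0035). *Cxcl5* was lower by -2.93 ± 0.33 against VAA (0.000528) and -2.34 ± 0.33 against WT (0.004). These 3 calls held in every alternative run, each library left out in turn included. *Cxcl1* was lower by -1.78 ± 0.49 against VAA (0.0274) and -2.20 ± 0.48 against WT (0.0231). The *Cxcl1* call was lost without any single KO DSS library, with adjusted *P* values of 0.0613, 0.0802 and 0.103 against VAA, and against WT also without WT DSS replicate 1 or 2, with a highest adjusted *P* of 0.092.

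By edgeR no interferon-type ligand passed between KO and either other genotype under DSS, and *Cxcl10* alone had an unadjusted *P* under 0.05. Of the class limma called none, and DESeq2 called *Cxcl10* lower in KO than in WT (-2.27, adjusted *P* = 0.0328). *Cxcl10* averaged 5.49 ± 2.62 CPM in KO DSS colon, 20.8 ± 14.2 CPM in VAA and 26.6 ± 21.4 CPM in WT (SD, n = 3 each). Its log2 fold change was -1.93 ± 0.65 against VAA (adjusted *P* = 0.0693) and -2.27 ± 0.65 against WT (0.0661). Every KO library was below every WT library for *Cxcl10*. Against WT edgeR called it with no expression filter (0.041), with only the groups compared (0.0325) and without VAA DSS replicate 2 (0.0478), VAA DSS replicate 3 (0.0167) or WT DSS replicate 3 (0.0291). Against VAA it was called with no expression filter (0.0459) and without VAA DSS replicate 3 (0.0224), WT DSS replicate 1 (0.0496) or WT DSS replicate 3 (0.0471). *Cxcl9* averaged 17.8 ± 5.90 CPM in KO, 35.8 ± 25.8 CPM in VAA and 43.2 ± 33.4 CPM in WT (SD, n = 3 each), and the groups overlapped. Its log2 fold change was -1.02 ± 0.64 against VAA (0.342) and -1.28 ± 0.63 against WT (0.269). *Cxcl11* gave -0.11 ± 0.36 (0.895) and -0.51 ± 0.36 (0.447).

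Among the others, *Cxcl13* averaged 8.95 ± 6.58 CPM in KO DSS colon, 43.5 ± 16.2 CPM in VAA and 50.2 ± 19.3 CPM in WT (SD, n = 3 each), and KO was lower by -2.28 ± 0.60 against VAA (adjusted *P* = 0.0267) and -2.49 ± 0.60 against WT (0.0366). The call against WT was lost without KO DSS replicate 2 or 3 (both 0.122) and without any single WT DSS library, with a highest adjusted *P* of 0.145, and under the replicate block it was -2.30 with 0.0565. The call against VAA was lost without KO DSS replicate 2 (0.102), KO DSS replicate 3 (0.0989) or VAA DSS replicate 3 (0.059). *Cxcl12* was lower by -1.24 ± 0.25 against VAA (0.00669) and was -0.53 ± 0.25 against WT (0.232). *Cxcl16* was lower by -0.86 ± 0.22 against VAA (0.0197) and was -0.24 ± 0.22 against WT (0.584). The *Cxcl16* call was lost without VAA DSS replicate 3 (-0.68 with 0.0593) or without KO DSS replicate 1 (0.0777) or 2 (0.0855). With only the groups compared the calls against VAA of *Cxcl12* (0.0785), *Cxcl13* (0.0621) and *Cxcl16* (0.0698) were lost. Without VAA DSS replicate 3 the members called were 6 in KO against VAA, where 2016 of 17361 genes were called, and 7 in KO against WT, where 2704 of 17361 were called in place of 991 of 17477.

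**Figure D3:**
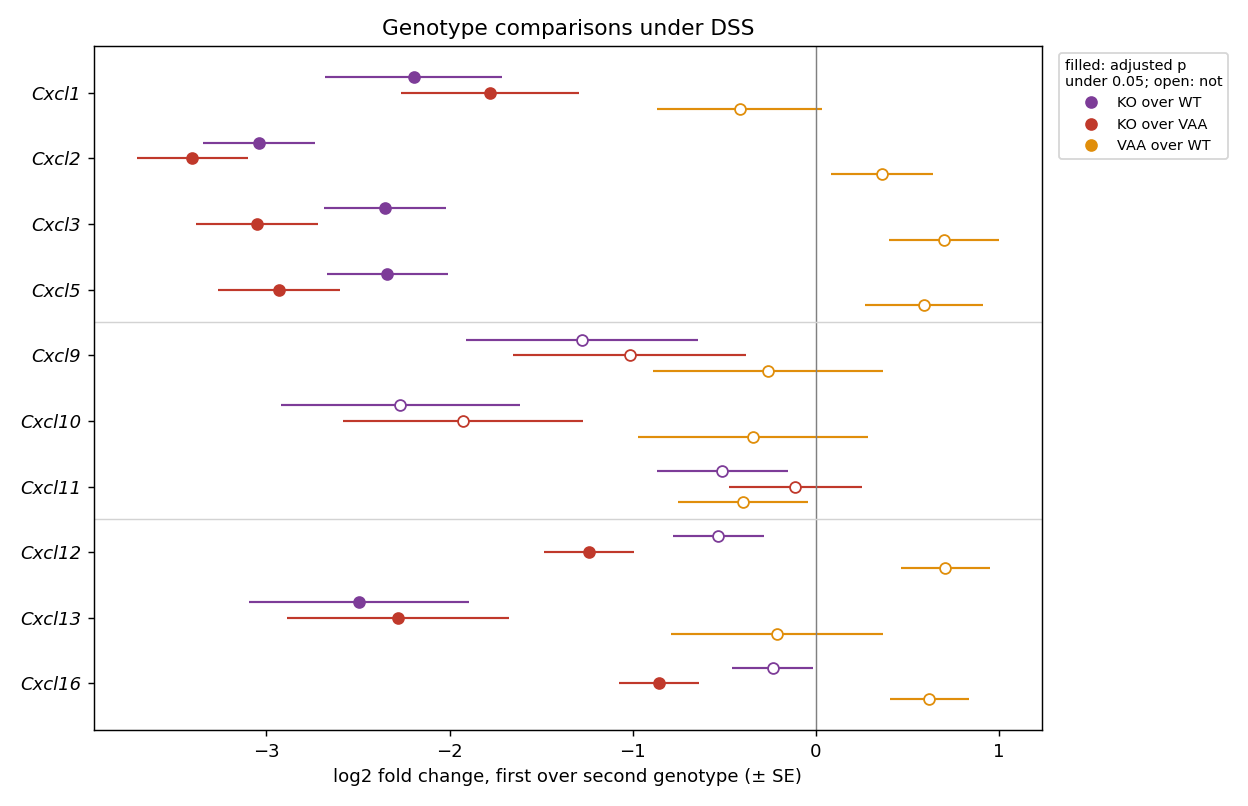
Points are log2 fold changes between genotypes under DSS, first over second genotype, with bars of 1 SE, filled where the adjusted *P* was under 0.05. The 4 neutrophil-type ligands lie between -3.40 and -1.78 for KO against both other genotypes, and no VAA against WT point is filled.

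No member passed in VAA against WT under DSS by edgeR, DESeq2 or limma, and 3 had an unadjusted *P* under 0.05 by edgeR (*Cxcl3*, *Cxcl12* and *Cxcl16*). In that comparison 0.00572% of all genes were called. *Cxcl3* was 0.70 ± 0.30 (adjusted *P* = 0.287), *Cxcl12* 0.71 ± 0.24 (0.276) and *Cxcl16* 0.62 ± 0.22 (0.276), and the medians were 0.07 for the members and 0.03 for all genes. In untreated colon no member passed in KO against VAA, KO against WT or VAA against WT, none had an unadjusted *P* under 0.05, and DESeq2 and limma called none, while 0% of all genes were called by edgeR (401, 352 and 233 genes at an unadjusted *P* under 0.05, and 3, 9 and 2 called by DESeq2). The DSS effect in KO minus that in WT was tested directly as an interaction. It was -3.26 ± 0.87 for *Cxcl1* (adjusted *P* = 0.282), -2.55 ± 0.58 for *Cxcl3* (0.227), -2.19 ± 0.58 for *Cxcl5* (0.282) and -3.08 ± 1.06 for *Cxcl13* (0.37). These 4 had an unadjusted *P* under 0.05, no member and 0% of all genes passed by edgeR, limma called no member, and DESeq2 called *Cxcl1*, *Cxcl3* and *Cxcl5*. For *Cxcl2* the interaction was -2.51 ± 1.37 (0.617) and for *Cxcl10* -2.67 ± 1.24 (0.504). The *Cxcl2* value changed sign, to 0.61, without KO untreated replicate 1. Over all genes 1736 had an unadjusted *P* under 0.05, and DESeq2 called 140 and limma 9. A difference in the size of the response to DSS was therefore not shown for any member by edgeR. The same interaction for VAA gave 0 members at an unadjusted *P* under 0.05, 0 by DESeq2 and limma, and 0% of all genes.

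The classes were set side by side within each library as mean log2 CPM. The mean of the 4 neutrophil-type ligands was 2.02, 1.95 and 1.87 in KO DSS libraries, 4.81, 4.76 and 4.53 in VAA DSS and 4.79, 4.22 and 4.05 in WT DSS, so KO lay apart. The mean of the 3 interferon-type ligands was 2.43, 2.74 and 2.70 in KO DSS, 3.60, 4.23 and 2.54 in VAA DSS and 4.79, 3.76 and 2.73 in WT DSS, so the groups overlapped. Neutrophil type minus interferon type was -0.41, -0.79 and -0.82 in KO DSS, against 1.21, 0.54 and 1.99 in VAA DSS and 0.00, 0.46 and 1.32 in WT DSS. With *Cxcl11* left out of the interferon type, an alternative chosen after seeing the data, the difference was -0.80, -1.45 and -1.67 in KO DSS, 0.00, -0.77 and 1.54 in VAA DSS and -1.19, -0.60 and 0.63 in WT DSS, and KO no longer lay apart. The separation of KO by this balance therefore depended on the uncertain *Cxcl11*.

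**Figure D4:**
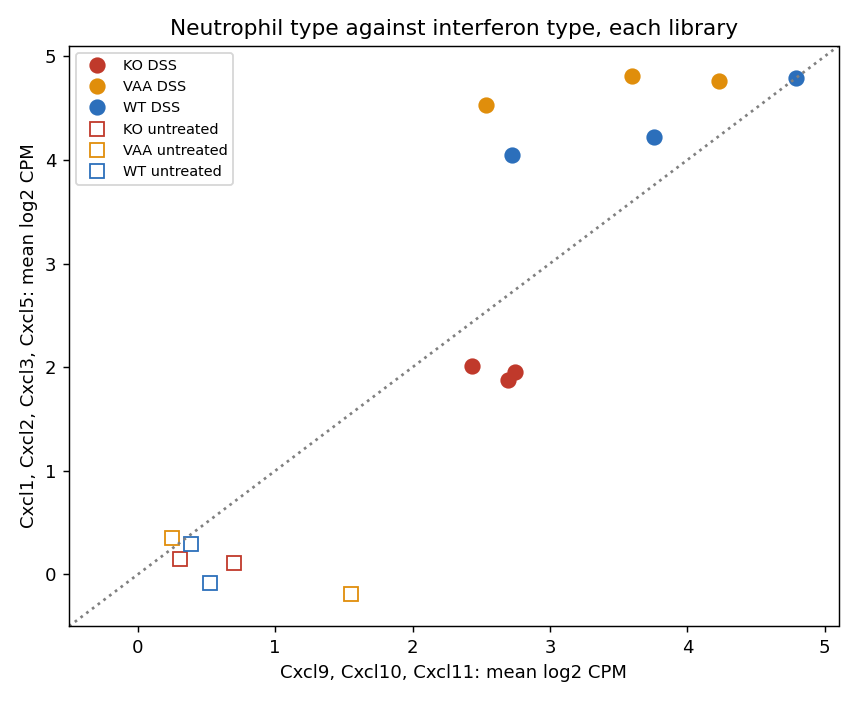
Each point is a library, with the mean log2 CPM of *Cxcl9*, *Cxcl10* and *Cxcl11* on the x axis, that of *Cxcl1*, *Cxcl2*, *Cxcl3* and *Cxcl5* on the y axis and a dotted line where they are equal. KO DSS libraries lie at 1.87 to 2.02 on the y axis, against 4.53 to 4.81 for VAA DSS and 4.05 to 4.79 for WT DSS.

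Interferon gamma transcripts were scarce. *Ifng* had 0.0776, 0.341 and 0.446 CPM in KO DSS libraries, 0.361, 1.73 and 0 in VAA DSS and 3.21, 0.92 and 0.236 in WT DSS, from 12, 36 and 60 counts in all, and no count in any untreated library. Within WT DSS the library with most *Ifng* also had most *Cxcl9* and *Cxcl10*, and the library with least had least of both. The same held within VAA DSS. This order was not particular to the interferon type. In WT DSS *Cxcl1*, *Cxcl5*, *Cxcl11* and *Cxcl16* followed it too, and *Cxcl2*, *Cxcl3*, *Cxcl12* and *Cxcl13* did not. In VAA DSS *Cxcl5* followed it and the remaining members did not. A link between *Ifng* and these ligands was not tested. In KO DSS, *Ifng* and *Cxcl10* were highest in replicate 3 and *Cxcl9* in replicate 2. *Ifng* was called higher after DSS in WT (adjusted *P* = 0.0474) and was not called between genotypes under DSS (0.55 in KO against VAA and 0.296 in KO against WT).

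**Figure D5:**
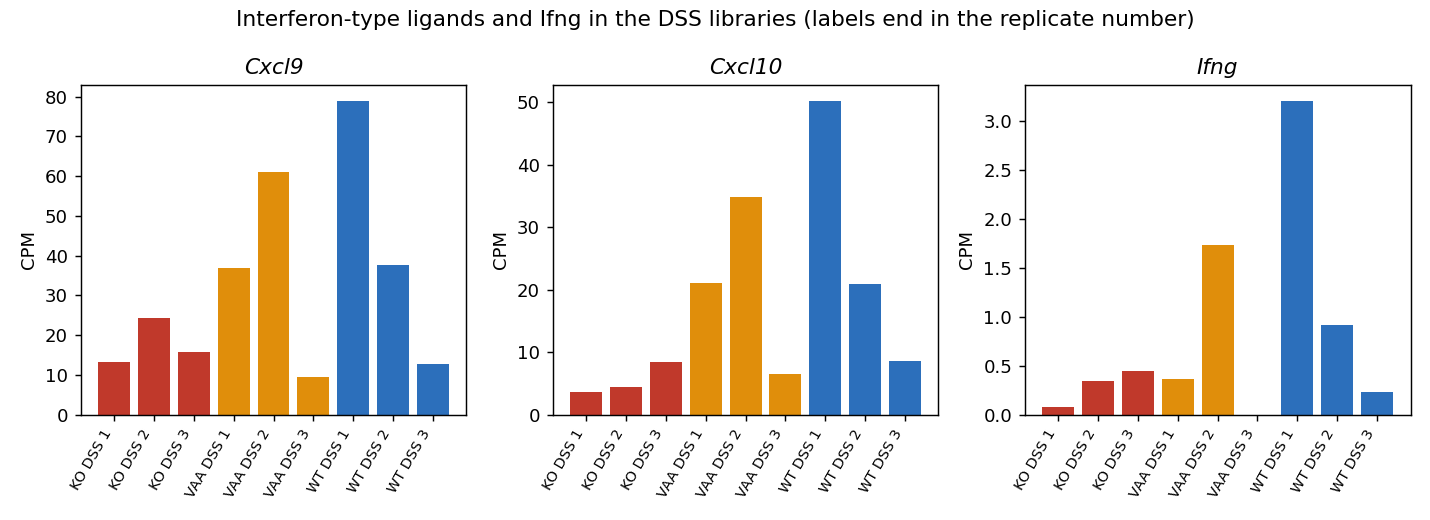
Bars are CPM of *Cxcl9*, *Cxcl10* and *Ifng* in each of the 9 DSS libraries, on axes that start at 0. WT DSS replicate 1, with 79.0, 50.2 and 3.21 CPM, is the highest library in each panel, and *Ifng* had no count in VAA DSS replicate 3.

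Some of the receptors rose after DSS and others did not pass. Averaged over genotypes 22.5% of all genes were called higher after DSS and 20.0% lower. Of 8 CXC chemokine receptor genes 7 were tested, and averaged over genotypes 3 rose after DSS: *Cxcr3*, the receptor of the interferon-type ligands, by 1.69 ± 0.30 (adjusted *P* = 0.00045), *Cxcr4*, the receptor of Cxcl12, by 1.75 ± 0.34 (0.00129) and *Cxcr6*, the receptor of Cxcl16, by 0.69 ± 0.22 (0.0226). *Cxcr3* had 1.32, 1.64 and 2.53 CPM in KO DSS libraries, 1.08, 0.867 and 0.576 in VAA DSS and 1.46, 1.46 and 0.885 in WT DSS. *Cxcr3* was thus not at its lowest in KO: the KO libraries were above the VAA libraries and overlapped those of WT, with 1.08 ± 0.39 against VAA (0.0806) and 0.54 ± 0.38 against WT (0.454). *Cxcr2*, the receptor of the neutrophil-type ligands, had 29.5, 21.6 and 22.0 CPM in KO DSS libraries, 33.3, 31.3 and 33.4 in VAA DSS and 31.8, 27.0 and 30.6 in WT DSS, against 15.2 to 28.5 CPM in the 6 untreated libraries. Its DSS effect passed in VAA (0.72 ± 0.23, adjusted *P* = 0.0411). No receptor was called between KO and either genotype under DSS. The smallest *P* values there belonged to *Ackr1* and *Ackr3*, atypical receptors that bind chemokines. *Ackr1* was -1.67 ± 0.56 against VAA (adjusted *P* = 0.0588) and -1.09 ± 0.57 against WT (0.283). *Ackr3* was -0.97 ± 0.34 against VAA (0.0802) and -0.89 ± 0.35 against WT (0.148).

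Of the other CXC ligands, 3 of 5 were tested. *Pf4*, platelet factor 4, fell by 0.60 on the log2 scale after DSS averaged over genotypes (SE 0.20, adjusted *P* = 0.0263), and *Cxcl14*, an epithelial and stromal ligand, was lower in KO than in VAA under DSS (-1.62 ± 0.37, 0.0119). *Cxcl15* was not called in these comparisons.

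Among the inducers and their receptors, 6 of 11 tested genes rose after DSS averaged over genotypes, where 22.5% of all genes were called higher. *Il1b*, which encodes interleukin-1 beta, rose by 5.68 ± 0.35 (adjusted *P* = 5.2e-08) and *Tnf*, tumour necrosis factor, by 3.56 ± 0.47 (5.25e-05). The others were *Ifng*, the lymphotoxin receptor gene *Ltbr* (0.52 ± 0.07, 0.00011), *Il17ra* (0.34 ± 0.08, 0.00293) and *Ltb* (1.58 ± 0.50, 0.0237). *Il1b* was the single inducer lower in KO than in WT under DSS (-2.74 ± 0.34, 0.00212), and *Il1b* (-2.29 ± 0.34, 0.00161) and *Il17ra* (-0.39 ± 0.12, 0.0387) were lower in KO than in VAA. *Il1b* had 10.6 to 13.6 CPM in KO DSS libraries, 28.3 to 79.4 in VAA DSS and 59.0 to 119 in WT DSS, so KO did not overlap either group. *Tnf* had 5.94 to 7.83, 6.24 to 19.7 and 7.66 to 21.4 CPM in KO, VAA and WT DSS libraries, and its genotype differences did not pass (adjusted *P* = 0.306 against VAA and 0.392 against WT).

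Of 10 regulators of chemokine transcription and mRNA decay, 9 rose after DSS averaged over genotypes and *Traf3ip2* did not pass. In that comparison 22.5% of all genes were called higher. Among those with the smallest *P* values were *Zc3h12a*, an RNase that degrades inflammatory mRNAs (2.07 ± 0.13, adjusted *P* = 1.71e-07), *Nfkbia*, the inhibitor of NF-κB (1.10 ± 0.11, 1.03e-05), *Rela* (0.54 ± 0.08, 0.000157), *Irf8* (0.77 ± 0.12, 0.000238) and *Nfkb1* (0.37 ± 0.06, 0.000447). None of the 10 was called in KO against WT under DSS, and *Zc3h12a* alone was called in KO against VAA (-0.91 ± 0.19, 0.00836).

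Of 5 proteases that cut chemokines, 4 rose after DSS averaged over genotypes and *Dpp4*, which inactivates Cxcl10 by trimming it, fell by 0.70 on the log2 scale (SE 0.16, adjusted *P* = 0.00362). In that comparison 22.5% of all genes were called higher and 20.0% lower. *Adam10*, a sheddase of Cxcl16, rose by 0.61 ± 0.08 (3.7e-05) and *Adam17* by 0.35 ± 0.10 (0.00928). *Mmp8* and *Mmp9*, which neutrophils carry in their granules, were the 2 that differed between genotypes. *Mmp9* was lower in KO by -3.60 ± 0.37 against VAA (0.000317) and -3.11 ± 0.38 against WT (0.00171). *Mmp8* had 0.149 to 0.751 CPM in KO DSS libraries, 12.0 to 22.9 in VAA DSS and 13.4 to 23.5 in WT DSS, and no count in any untreated library.

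Like the neutrophil-type ligands, most neutrophil markers were lower in KO than in VAA or WT under DSS. Of 10 neutrophil markers 8 were lower in KO than in VAA and 7 lower in KO than in WT, with medians of -3.86 and -3.45. Of all genes 9.41% and 2.46% were called lower there. The markers summed to 155, 113 and 118 CPM in KO DSS, 607, 396 and 790 in VAA DSS and 360, 434 and 342 in WT DSS. The 4 ligands summed to 31.7, 31.2 and 24.8 CPM, to 235, 257 and 180 and to 222, 145 and 101 for the same libraries. Within VAA DSS the order of the markers was the reverse of that of the ligands. Within KO DSS and WT DSS the orders differed in part. *S100a9*, a main neutrophil protein, had 4.42, 7.16 and 4.39 CPM in KO DSS libraries, 126, 69.2 and 82.2 in VAA DSS and 73.4, 92.1 and 58.1 in WT DSS, and at most 0.259 CPM in untreated libraries. *Ly6g* and *Cxcr2*, by contrast, had 46.6 to 99.0 and 15.2 to 28.5 CPM in those untreated libraries, and without them the markers summed to 17.5 to 23.2 CPM in KO DSS, 223 to 408 in VAA DSS and 202 to 280 in WT DSS. *Mmp8* was at 0 in all 3 untreated groups and *Retnlg* in the VAA untreated group. The part of neutrophil number in the ligands' values was not tested.

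Markers of other cell types are given beside the other members. Of all genes 9.41% were called lower and 6.01% higher in KO against VAA under DSS. In KO against WT under DSS these shares were 2.46% and 3.21%, and 20.0% were lower after DSS averaged over genotypes. Of 6 fibroblast markers 6, and of 6 endothelial markers 4, were lower in KO than in VAA under DSS, as *Cxcl12* was, against 1 and 0 lower in KO than in WT, with summed fibroblast levels of 792 to 1180 CPM in KO DSS, 1270 to 3310 in VAA DSS and 1090 to 1780 in WT DSS. Without VAA DSS replicate 3, the library with 3310 CPM, the *Cxcl12* call in KO against VAA held. The *Cxcl12* difference from WT then had an adjusted *P* of 0.0499. That library also had the highest endothelial sum, at 266 CPM, and the marker calls without it are not given here. Of 8 monocyte and macrophage markers 3 were lower in KO than in VAA and 1 lower than in WT, with sums of 227 to 304 CPM in KO DSS, 411 to 605 in VAA DSS and 310 to 511 in WT DSS. The T and NK cell markers summed to 25.5 to 27.8 CPM in KO DSS, 8.64 to 21.5 in VAA DSS and 14.9 to 22.7 in WT DSS, and 1 of 8 (*Nkg7*) was higher in KO than in VAA and 0 of 8 were called in KO against WT. Their log2 fold changes ran from -0.20 to 1.40 against VAA and from -0.095 to 0.78 against WT. B cell markers summed to 26.9 to 204 CPM in KO DSS, 27.4 to 149 in VAA DSS and 76.2 to 119 in WT DSS, with 0 of 8 called in these comparisons, beside the called differences of *Cxcl13*. Of 7 epithelial markers 5 were higher in KO than in VAA and 2 higher than in WT, and none of the 6 smooth muscle markers, which all fell after DSS averaged over genotypes, was called between genotypes. The part of any of these cell types in the members' values was not tested.

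The genes nearest each member were those with the smallest root mean square difference of centred log2 CPM over the 15 libraries. *Lilrb4a* (0.48) and *Samsn1* (0.60) were nearest to *Cxcl1*, *Myot* (0.47) and *Reg3b* (0.66) to *Cxcl2*, *Stx11* (0.41) and *Cd300lf* (0.43) to *Cxcl3*, and *Trim10* (0.40) and *Socs3* (0.49) to *Cxcl5*. *Gbp10* was nearest to both *Cxcl9* (0.68) and *Cxcl10* (0.55), followed by *Iigp1* (0.71) for *Cxcl9* and *Tgtp2* (0.57) for *Cxcl10*. The nearest member to each of this pair was the other, at 0.88. The nearest member was also of the same class for *Cxcl2* (*Cxcl5*, 1.11), *Cxcl3* (*Cxcl5*, 0.96) and *Cxcl5* (*Cxcl1*, 0.87). *Cxcl12* and *Cxcl16* were nearest to each other (0.50). It was of another class for *Cxcl1* and *Cxcl13*, nearest to each other (0.86), and for *Cxcl11* (*Cxcl16*, 0.56). *Angptl8* (0.30) and *Plek2* (0.31) were nearest to *Cxcl11*, *Pdgfra* (0.14), a fibroblast marker above, and *Tram2* (0.15) to *Cxcl12*, *Serpina3g* (0.67) and *Mcemp1* (0.71) to *Cxcl13*, and *Ifnar2* (0.18) and *C1ra* (0.19) to *Cxcl16*. Members with small changes have small distances of this kind, so the values are not comparable between members. *Trim10*, *Gbp10* and *Mcemp1* had the lowest mean log2 CPM of these nearest genes, at -0.211, 0.041 and 0.19, so their profiles are less certain.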

How the data were processed

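The authors deposited estimated counts by gene, from kallisto 0.46 and mm10 per the submitters' processing notes. The authors also deposited log2 CPM values for 17531 genes, which the deposited counts give within 0.018 at a prior count of 2. The sources used here do not name the annotation used for counting.

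The counts, rounded to whole numbers, were fitted by edgeR 4.0.16 in R 4.3.3: expression filter, trimmed mean of M values, a mean for each of 6 groups over 15 libraries, quasi-likelihood tests of 12 contrasts, 9 residual degrees of freedom and a common dispersion of 0.0457. CPM is counts over the scaled library total in M. Per-kilobase values use the longest coding transcript of GENCODE on GRCm38, the build of mm10. Where a group held 1 to 3 counts, ratios carry exact 95% intervals, which cover counting error only. The script was tested on simulated data.

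The members, 5 pathway lists of 41 genes (36 tested) and 8 marker lists were chosen with earlier results of these data known, from general knowledge. Genes named besides the members were up to 6 called genes of a pathway list by *P* value, or the 2 of smallest *P* where none was called, and the 2 genes nearest each member; 1 gene named by this rule is not reported here. *Ddx3y*, *Nkg7*, *S100a9*, *Ly6g*, *Retnlg* and the repeated levels of *Ifng*, *Cxcr2* and *Cxcr3* were chosen after their values were seen.

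Replicates are separate samples in the labels, which do not state separate animals, so a *P* value reflects the spread among these samples, which may be technical. Equal replicate numbers are not said to mark a shared litter or day, and residuals of 33 equal-numbered pairs correlated between -0.16 and 0.31 with 8 over 0.1, so samples were not paired. Alternatives were DESeq2 1.42.0 size factors and test, limma 3.58.1 on the deposited log2 values, no filter, only the groups compared, the replicate block, a sex covariate, no male libraries, and each library left out in turn. Protein sequences were not used here.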

Additional observations from a re-analysis of the deposited data

How the results depend on the processing

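Over 120 results (10 members in 12 comparisons) and 23 alternatives, 2755 values were obtained: 2614 kept their direction and side of the threshold, 42 lost the call, 24 gained it, no called value reversed, and 75 values that were not called changed sign. A result with no call could not lose one, so this total does not measure how stable the calls were. In KO against WT under DSS *Cxcl13* lost its call in 6 of 23 alternatives and *Cxcl2* in 0. Leaving out each library in turn, the number of members called was 1 to 4 for DSS in KO, 6 to 9 in VAA and in WT, 4 to 8 in KO against VAA and 3 to 7 in KO against WT under DSS, and 0 to 1 in VAA against WT under DSS, where *Cxcl12* was called without VAA DSS replicate 2. The 1 for DSS in KO came without KO untreated replicate 1, the 4 in KO against VAA without KO DSS replicate 2, and the 3 in KO against WT without WT DSS replicate 1 or 2 or KO DSS replicate 2 or 3. For DSS in KO, 1 member was called without both male libraries and 5 with only the groups compared. With only the groups compared, 4 were called in KO against VAA, where 545 of 16262 genes were called. Without KO DSS replicate 2, 1380 of 17432 genes were called in KO against VAA and 403 in KO against WT. KO against WT gave 349 of 17448 genes without KO DSS replicate 3, 259 of 17444 without WT DSS replicate 1 and 121 of 17452 without WT DSS replicate 2. The DESeq2 test called 3 in the KO interaction. With the replicate number as a block, an unpaired label here, members called were 3, 8 and 9 for DSS in KO, VAA and WT, 9 averaged, 7 in KO against VAA, 4 in KO against WT and 0 in the remaining comparisons. Of all 17477 genes this block called 2542, 3578 and 5279 for DSS in KO, VAA and WT and 7607 averaged. It called 2647 in KO against VAA and 1074 in KO against WT under DSS. The cause of these shifts was not tested.

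Counts over all genes moved more. DSS in KO gave 1862 called genes, 2986 with only the groups compared, 1187 with the sex covariate, 538 without both male libraries, 403 without KO untreated replicate 1 and 3750 without VAA DSS replicate 3. DSS in VAA gave 3571, or 1089 with only the groups compared, and DSS in WT 4642, or 1999 without both male libraries. KO against VAA under DSS gave 2695, or 545 with only the groups compared. KO against WT under DSS gave 991, 1748 by DESeq2, 2766 with only the groups compared, 531 without both male libraries, 2704 without VAA DSS replicate 3 and 121 without WT DSS replicate 2. VAA against WT under DSS gave 1, or 37 by DESeq2 and 848 without VAA DSS replicate 2, so its background share rests on that library. Depth limits *Cxcl2* and *Tert* in groups with 4 counts or fewer.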
